A study of Homo sapiens with 4 samples.

Results

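The chromatin around 5 surface protein genes of blood progenitor cells, CD34, KIT, FLT3, PROM1 and CD33, was examined in the ATAC-seq peak lists of HL-60 cells. The question was which open regions at these genes were present with and without retinoic acid treatment. ATAC-seq marks open chromatin by letting the Tn5 transposase cut it and insert sequencing adapters. HL-60 is 1 established human line, labelled as acute promyelocytic leukemia from peripheral blood, and it matures toward granulocytes when given all-trans retinoic acid (ATRA). The ATRA group was treated with 1 µM ATRA for 4 days, and the control group received ethanol, the solvent of ATRA, for 4 days. Each group had 2 replicates, cultures that the study describes as independent, and all 4 libraries came from the same line. The members were the peaks that overlapped a gene body or the 50 kb on either side of it. Peaks of the 4 lists that overlapped by at least 1 bp were merged, which gave 50 regions at the 5 genes out of 78063 in the genome. Coordinates and sequences are of GRCh37 (hg19), and sequences are written 5′ to 3′ on the strand of the gene.

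These genes are read as markers of immaturity in the blood lineage. CD34 is a sialomucin of stem and progenitor cells. KIT and FLT3 are receptor tyrosine kinases that bind stem cell factor and FLT3 ligand and signal for survival and division of progenitors. PROM1, also known as CD133, is a membrane glycoprotein of cell protrusions. CD33 is a sialic acid-binding receptor with inhibitory signalling motifs that is carried by myeloid precursors and by many mature myeloid cells. A gene that is active usually has open chromatin at its start and at enhancers in or around it, and the same enhancer region may serve a neighbouring gene.

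The lists held 42081 to 63541 peaks. That of ATRA replicate 2 was the longest and had the widest peaks, with a median of 416 bp against 291 to 328 bp in the other lists. Promoter peaks were found in all 4 libraries for 4 of 10 myeloid precursor genes (SPI1, CEBPE, LYZ and CD33) and in no library for ELANE and AZU1. Of 10 genes of other lineages, 8 had a promoter peak in no library and COL1A1 had one in all 4. A region is called control-specific where both control libraries had overlapping peaks and the ATRA libraries did not, ATRA-specific in the opposite case, overlapping where both pairs of replicates had them, and unreplicated otherwise. A specific region may therefore still have a peak in 1 library of the other group. The score of each peak is given as a percentile of its own list, from 0 for the weakest to 100 for the strongest, because its scale was not stated, and a region with several peaks in a library takes the highest.

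By these classes the 5 genes differed in direction, on few regions each. All 3 specific regions of CD34 were control-specific, and all 4 of KIT and both of CD33 were ATRA-specific. FLT3 had 1 control-specific and 3 ATRA-specific regions, and PROM1 had none of either kind. Where no peak was allowed in the other group, CD34 kept 1 control-specific region, KIT 3 and CD33 1 ATRA-specific, and FLT3 1 of each kind. Without ATRA replicate 1 the direction of CD34 reversed, to 1 control-specific and 2 ATRA-specific regions. Of the 50 regions, 4 were control-specific, which was 8% against 9.52% of all regions, and 9 were ATRA-specific, which was 18% against 18.0% of all regions. The set as a whole thus had shares near those of the genome. Another 20 regions (40%) were overlapping, compared with 30.2% of all regions, and 17 (34%) were unreplicated, compared with 42.3%. With no peak at all in either library of the other group, 2 control-specific and 5 ATRA-specific regions remained (4% and 10%), against 3.37% and 8.94% of all regions. A control-specific region was present in the same window of 39.0% and an ATRA-specific region of 64.5% of 20175 protein-coding genes. Since the libraries come from whole cultures, fewer cells with an open region and a less open region in each cell cannot be told apart.

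**Figure D1:**
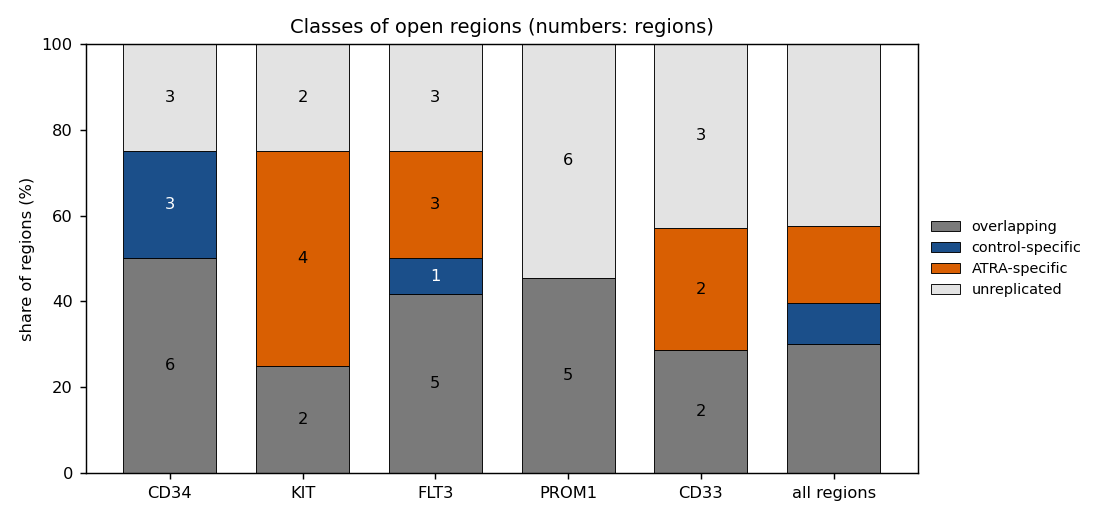
Share of the regions of each gene (%, vertical axis) in the classes overlapping, control-specific, ATRA-specific and unreplicated, with the number of regions written in the bar, beside all 78063 regions of the genome. CD34 holds 3 of the 4 control-specific regions, and KIT holds 4 of the 9 ATRA-specific regions.

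**Figure D2:**
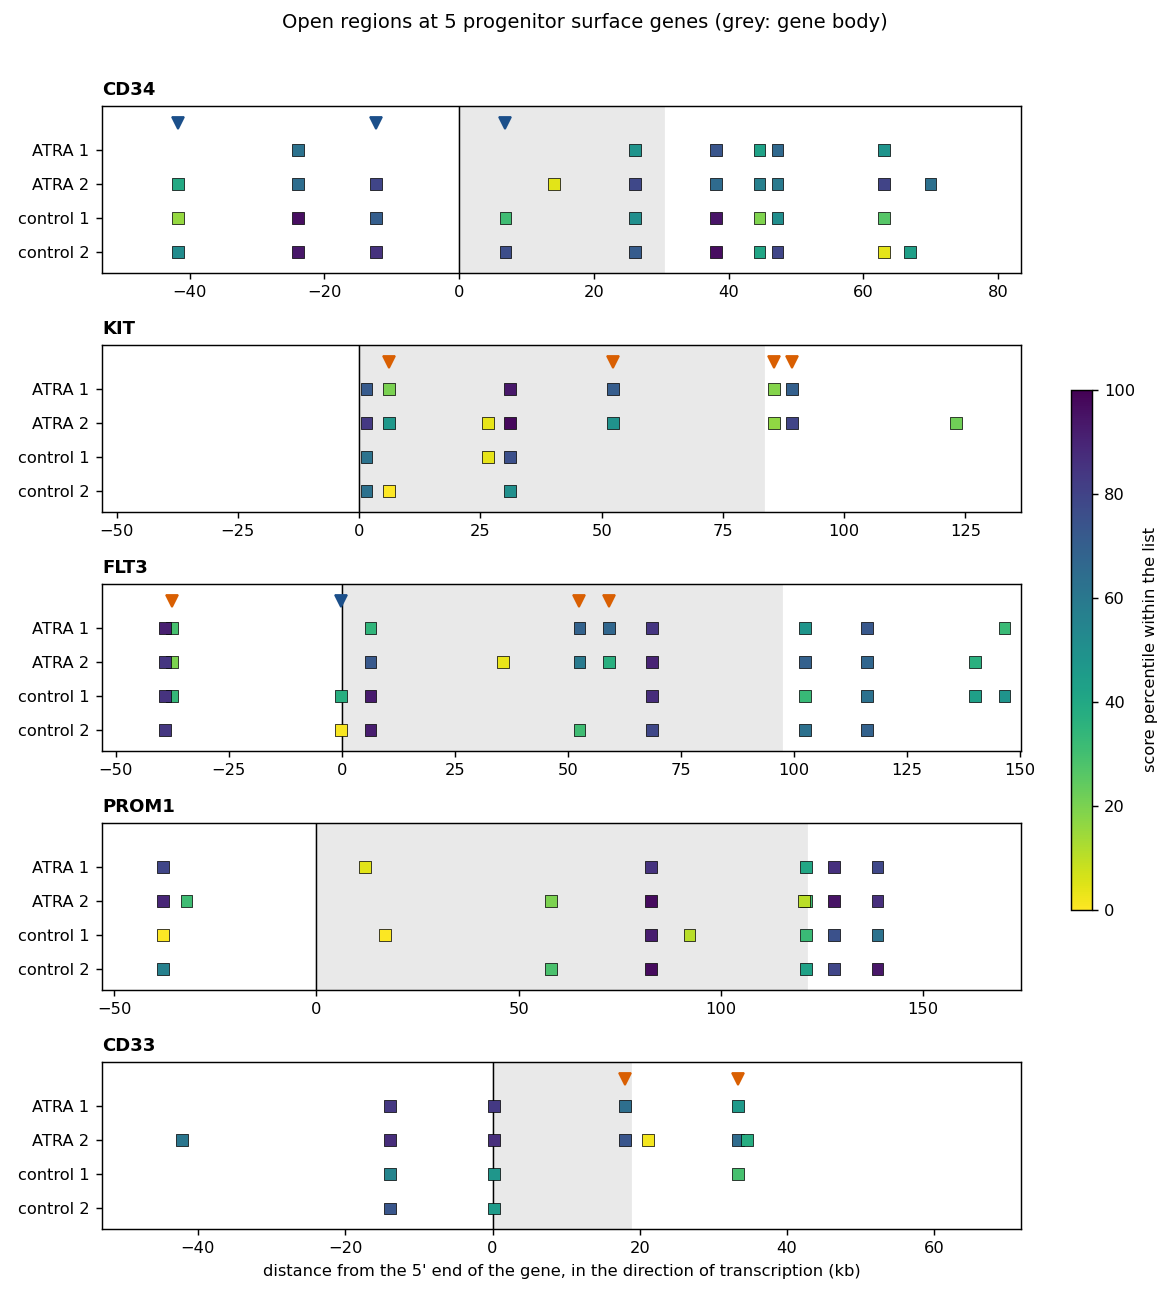
Peaks in each library along the 5 genes, by distance from the 5′ end of the gene in kb (horizontal axis, grey for the gene body), coloured by score percentile within the list. Blue triangles mark control-specific and orange triangles ATRA-specific regions; the 3 blue triangles of CD34 lie within and upstream of the gene, and the 4 orange triangles of KIT lie within and downstream of it.

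CD34 (ENSG00000174059) spans chr1:208054317-208084747 and is read from the minus strand, and its window held 12 regions. The control-specific region in the gene, chr1:208077695-208078098, was in an intron 6850 bp downstream of the 5′ end. It had a peak of 320 bp at percentile 31.0 in control replicate 1 and of 372 bp at percentile 76.3 in control replicate 2, and no peak in either ATRA library. A second control-specific region, chr1:208096763-208097531, lay 12400 bp upstream of the start. Its percentiles were 70.7 and 85.8 in the control replicates and 79.6 in ATRA replicate 2, with no peak in ATRA replicate 1. The third, chr1:208126275-208126802, 41792 bp upstream, had percentiles of 15.9 and 51.8 in the control replicates and 39.7 in ATRA replicate 2, and again no peak in ATRA replicate 1. Of the 3, only the intronic region was thus without a peak in both ATRA libraries. Its central 200 bp are shown because it was the one control-specific site of CD34 with no peak in either ATRA library, with matches to GATA, PU.1 and RUNX motifs in capitals.
CD34 intronic region, chr1:208077797-208077996, minus strand: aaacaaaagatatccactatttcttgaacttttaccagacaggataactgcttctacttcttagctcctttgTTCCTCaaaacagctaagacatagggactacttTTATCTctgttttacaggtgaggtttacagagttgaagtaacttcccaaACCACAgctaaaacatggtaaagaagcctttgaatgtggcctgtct
The capitals are, in order, a match to PU.1, one to the blood factor motif GATA and one to RUNX, each read from the opposite strand.

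Of the 6 overlapping regions of CD34, 2 ranked lower after treatment in both replicates. The region at chr1:208046084-208047254, in the intergenic sequence 38078 bp downstream of the 5′ end, was at percentile 94.8 and 96.6 in the control replicates and 73.6 and 65.3 in the ATRA replicates. Its peaks were also narrower, at 666 and 716 bp in the ATRA replicates against 918 and 1100 bp. The region at chr1:208108450-208108990, 23973 bp upstream, was at 96.5 and 93.9 in the control replicates and 62.3 and 64.7 in the ATRA replicates. These were among the highest-ranking peaks of the window in the control lists. In the other direction, the most distant downstream region of the overlapping class, chr1:208021466-208021955, was at 26.3 and 4.12 in the control replicates and at 48.4 and 79.7 in the ATRA replicates. The region at chr1:208039784-208040526 was at 19.3 and 41.2 in the control replicates and at 42.5 and 56.8 in the ATRA replicates, so its groups were nearly touching. No library had a peak at a promoter of CD34, taken as 1 kb before to 100 bp after a start of a protein-coding transcript, a state shared with 44.1% of protein-coding genes. Of all protein-coding genes, 165 (0.818%) had 3 or more control-specific and 0 ATRA-specific regions, a pattern that was looked up after that of CD34 had been seen. This share was not adjusted for the 12 regions in the window of CD34, against a median of 6 over protein-coding genes. The excess of control-specific regions at CD34 rested on ATRA replicate 1: when ATRA replicate 2 alone stood for the treated cells, CD34 had 1 control-specific and 2 ATRA-specific regions. Without ATRA replicate 2 it had 3 and 0. Peaks at CD34 numbered 7 and 10 in the ATRA replicates and 9 and 10 in the control replicates (exact permutation p = 1, adjusted p = 1).

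KIT (ENSG00000157404) spans chr4:55523434-55606949 and is read from the plus strand, with 8 regions in its window. Both ATRA libraries had peaks at 4 regions that the control libraries lacked or held in 1 list. The intronic region chr4:55575565-55576067 had peaks at percentile 71.1 and 48.7 in the ATRA replicates, and the region chr4:55612411-55613063, downstream of the gene, had them at 69.8 and 80.0. A weaker downstream region, chr4:55608781-55609280, was at 18.4 and 16.7. None of these 3 regions had a peak in either control library. The intronic region chr4:55529354-55529838 was at percentile 20.3 and 46.6 in the ATRA replicates, and control replicate 2 had a peak there that was among the weakest of its list (percentile 0.302). The central 200 bp of the stronger pair are shown because these sites were absent from both control lists.
KIT intronic region, chr4:55575716-55575915, plus strand: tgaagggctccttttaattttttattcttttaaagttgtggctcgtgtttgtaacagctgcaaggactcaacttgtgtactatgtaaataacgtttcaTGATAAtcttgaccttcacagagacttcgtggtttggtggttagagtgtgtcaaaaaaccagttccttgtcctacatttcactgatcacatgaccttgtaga
KIT downstream region, chr4:55612637-55612836, plus strand: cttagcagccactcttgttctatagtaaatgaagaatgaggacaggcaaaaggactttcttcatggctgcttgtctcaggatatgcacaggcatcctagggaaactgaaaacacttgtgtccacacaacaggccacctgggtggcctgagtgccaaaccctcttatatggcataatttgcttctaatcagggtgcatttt
The capitals mark a GATA match (TGATAA) in the intronic region, and the downstream region held none of the 5 motifs in these letters.

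Both overlapping regions of KIT had higher percentiles and wider peaks in the ATRA replicates. The region beside the start, chr4:55524511-55525327, began 377 bp from the nearest annotated start and its centre was in the first part of the gene, in an intron. It was at percentile 62.1 and 62.7 in the control replicates and 71.8 and 83.5 in the ATRA replicates. The intronic region chr4:55553869-55555186, centred 31094 bp downstream of the 5′ end, had the highest mean percentile of the gene in the ATRA-treated cells. In the control cells it was level with the region beside the start, with means of 62.9 and 62.4. It was at percentile 75.6 and 50.2 in the control replicates and 93.5 and 98.0 in the ATRA replicates. Its peaks covered 344 and 444 bp in the control replicates and 889 and 1318 bp in the ATRA replicates, so that ATRA replicate 1, a list of ordinary length, also stood above both controls. Because no peak reached the promoter window, KIT also counts among the genes with a promoter peak in no library. The number of peaks at KIT was 6 and 8 in the ATRA replicates and 3 and 4 in the control replicates, or 7 ± 1.4 (SD, n = 2) against 3.5 ± 0.71 (SD, n = 2). The groups did not overlap, but with 2 libraries against 2 the two-sided exact permutation p of 0.333 is the smallest possible (adjusted exact p = 0.833 over the 5 genes), and 22.1% of protein-coding genes had non-overlapping peak numbers that were higher in the ATRA replicates. Of protein-coding genes, 723 (3.58%) had 4 or more ATRA-specific and 0 control-specific regions, counted after the values of KIT had been seen. This share was not adjusted for the 8 regions in the window of KIT, against a median of 6 over protein-coding genes. Leaving out single libraries left KIT with 3 to 6 ATRA-specific regions. It had 1 control-specific region without control replicate 2 and 0 in the other cases. When only the stronger peaks of each list, those above its median score, were kept, KIT had 1 ATRA-specific region.

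FLT3 (ENSG00000122025) spans chr13:28577411-28674729 and is read from the minus strand, and its window held 12 regions, 2 of them at the promoter of the neighbouring gene PAN3. The control-specific region was at the start of FLT3 itself, chr13:28674681-28674992. Control replicate 1 had a peak of 259 bp at percentile 37.2, and control replicate 2 had one of 193 bp at percentile 1.09, close to the weakest of its list. No ATRA library had a peak there. A promoter peak in both control and no ATRA library was found for 61 protein-coding genes (0.302%). This count was not among the planned comparisons, and the opposite pattern was not counted. The share is of all protein-coding genes, of which 44.1% had a promoter peak in no library. When each list was reduced to its 42081 highest-scoring peaks, the weak peak of control replicate 2 was lost and FLT3 had 0 control-specific regions. Inside the gene, the region chr13:28615300-28615800 was ATRA-specific, at percentile 67.2 and 37.1, with no control peak. The intronic region chr13:28621963-28622316 was at 69.0 and 59.2 in the ATRA replicates and at 31.1 in control replicate 2 only. The last ATRA-specific region lay beside the PAN3 start and had a peak at 33.5 in control replicate 1, above the 29.5 and 19.7 of the ATRA replicates. The sequence before the FLT3 start is shown as the one start among the 5 genes with a peak in control cells only, beside the intronic site that had peaks in ATRA-treated cells only.
FLT3, 250 bases before the start, chr13:28674714-28674963, minus strand: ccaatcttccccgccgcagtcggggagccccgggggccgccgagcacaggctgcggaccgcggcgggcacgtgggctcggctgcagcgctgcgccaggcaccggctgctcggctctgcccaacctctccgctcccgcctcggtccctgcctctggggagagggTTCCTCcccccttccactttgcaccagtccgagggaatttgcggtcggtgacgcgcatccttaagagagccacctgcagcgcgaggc
FLT3 intronic region, chr13:28615450-28615649, minus strand: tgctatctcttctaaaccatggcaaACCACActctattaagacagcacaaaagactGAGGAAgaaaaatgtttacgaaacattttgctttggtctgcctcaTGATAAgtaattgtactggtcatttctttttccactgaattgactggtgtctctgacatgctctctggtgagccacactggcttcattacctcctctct
The capitals mark 1 match to PU.1 before the start, and in the intron they mark, in order, RUNX, PU.1 and GATA.

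FLT3 had the largest difference toward the control replicates among the 20 regions with a peak in all 4 lists. The intronic region chr13:28667769-28668931, 6363 bp downstream of the start, was at percentile 92.6 and 92.1 in the control replicates and 34.4 and 72.3 in the ATRA replicates. Its peak was 305 bp wide in ATRA replicate 1 and 1065 and 879 bp in the control replicates, but 1025 bp in ATRA replicate 2, so widths overlapped between the groups while ranks did not. The other overlapping regions of FLT3 had percentiles whose groups overlapped. They included the intronic region chr13:28605346-28606955, at 87.3 and 78.7 in the control replicates and 84.7 and 90.3 in the ATRA replicates. Peaks at FLT3 numbered 9 and 10 in the ATRA replicates and 9 and 8 in the control replicates (exact permutation p = 0.667, adjusted p = 1). Without control replicate 2 the balance of FLT3 turned to 3 control-specific against 2 ATRA-specific regions. It was even, at 1 against 1, both among peaks above the median score of each list and where no peak was allowed in the other group.

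PROM1 (ENSG00000007062) spans chr4:15964699-16086001 and is read from the minus strand, and none of its 11 regions was specific to a group. Its 5 overlapping regions included the strongest one in the gene body, chr4:16002885-16003578, in an intron at percentile 91.9 and 97.1 in the control replicates and 85.2 and 97.0 in the ATRA replicates. The region at the promoter of FGFBP2, a gene that overlaps the end of PROM1, was at 32.3 and 42.3 against 40.6 and 31.6, so neither region separated the groups. Ranks were higher in both ATRA replicates at 2 regions. The intergenic region chr4:15957804-15958332 was at 75.2 and 79.2 in the control replicates and 86.1 and 94.96 in the ATRA replicates. The region chr4:16123658-16124286, 37971 bp upstream of the gene, was at 0.176 and 56.4 in the control replicates and at 79.2 and 89.1 in the ATRA replicates. The 6 unreplicated regions were weak, with percentiles from 0.503 to 31.0. No library had a peak at a promoter of PROM1. Peaks numbered 6 and 8 in the ATRA replicates and 7 and 6 in the control replicates (exact permutation p = 1, adjusted p = 1). The lack of specific regions did not hold in every subset of libraries, since PROM1 had 3 ATRA-specific regions without ATRA replicate 1 and 1 without ATRA replicate 2, and it had 1 control-specific region without control replicate 1 and 2 without control replicate 2.

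CD33 (ENSG00000105383) spans chr19:51728320-51747115 and is read from the plus strand, and it was the one gene of the 5 with a promoter peak in all 4 libraries, as were 41.9% of protein-coding genes. The promoter region chr19:51728014-51728958 was at percentile 47.4 and 45.4 in the control replicates and 83.6 and 87.0 in the ATRA replicates. Its centre was in a coding exon, 166 bp past the 5′ end. Its width was 355 and 340 bp in the control replicates and 686 and 945 bp in the ATRA replicates. Neither measure overlapped between the groups, and the control replicates lay within a few percentiles of each other. A region 13910 bp upstream, chr19:51713899-51714921, also ranked higher, at 83.9 and 87.3 in the ATRA replicates against 54.4 and 73.2. The ATRA-specific region chr19:51746078-51746604, in an intron of CD33, was at percentile 63.8 and 73.8 in the ATRA replicates and had no control peak. The other ATRA-specific region, chr19:51761349-51761897, was in an intron of SIGLECL1, the next gene downstream. It was at 45.9 and 65.1 in the ATRA replicates and 29.5 in control replicate 1. The sequence before the CD33 start is shown as the start that was open in all lists, with that of the intronic ATRA-specific site.
CD33, 250 bases before the start, chr19:51728070-51728319, plus strand: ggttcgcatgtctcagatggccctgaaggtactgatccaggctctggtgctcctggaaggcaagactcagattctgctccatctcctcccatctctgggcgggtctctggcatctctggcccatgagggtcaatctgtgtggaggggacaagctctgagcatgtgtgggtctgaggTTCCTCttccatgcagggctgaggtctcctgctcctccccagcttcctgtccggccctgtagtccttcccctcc
CD33 intronic region, chr19:51746241-51746440, plus strand: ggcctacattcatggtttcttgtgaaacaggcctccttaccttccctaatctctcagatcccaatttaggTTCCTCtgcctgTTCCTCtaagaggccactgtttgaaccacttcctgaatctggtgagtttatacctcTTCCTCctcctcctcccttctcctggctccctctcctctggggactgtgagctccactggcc
The capitals mark matches to PU.1 (TTCCTC), 1 before the start and 3 in the intron.

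Peaks at CD33 numbered 4 and 7 in the ATRA replicates and 3 and 2 in the control replicates, or 5.5 ± 2.1 (SD, n = 2) against 2.5 ± 0.71 (SD, n = 2). With single libraries left out, CD33 had 1 ATRA-specific region (without control replicate 2) to 5 (without ATRA replicate 1). As for KIT, the groups did not overlap and the exact permutation p was 0.333, the smallest possible (adjusted exact p = 0.833). Peaks covered 1818 and 4507 bp in the ATRA replicates and 788 and 661 bp in the control replicates. At KIT they covered 3096 and 4731 bp in the ATRA replicates and 1140 and 1349 bp in the control replicates. The covered length separated the groups in this direction at 44.5% of protein-coding genes, so neither gene stood apart from the genome by this measure alone (exact permutation p = 0.333 and adjusted p = 0.833 for both). At CD34, FLT3 and PROM1 the covered length overlapped between the groups (exact permutation p = 0.667, 0.667 and 1; adjusted p = 0.833, 0.833 and 1).

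**Figure D3:**
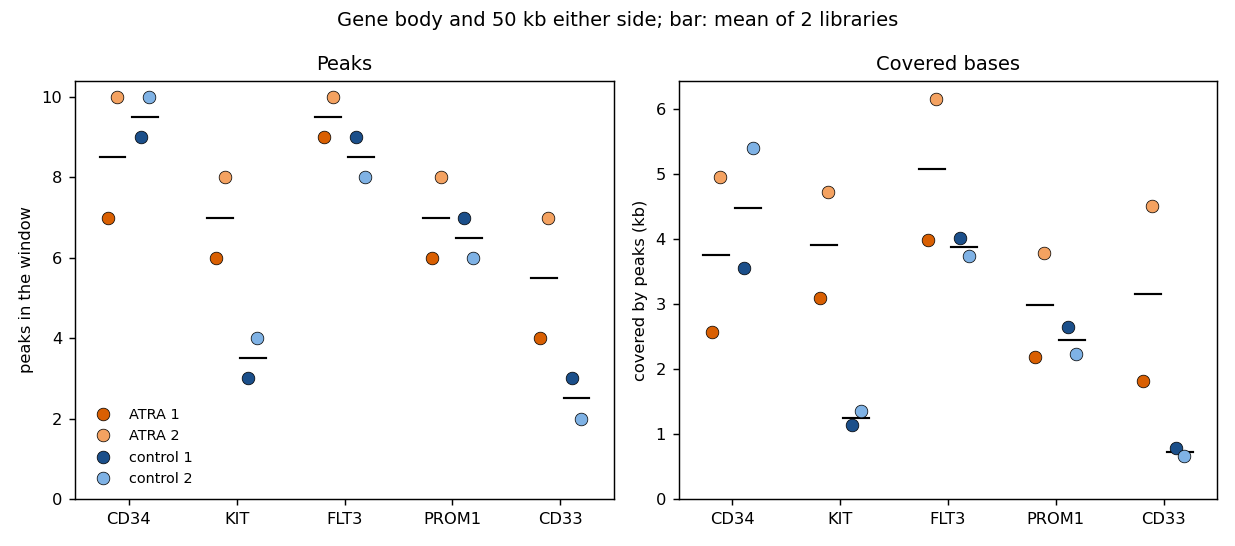
Number of peaks (left) and length covered by peaks in kb (right) within the gene body and 50 kb on either side, for each library (points) with the mean of each group (bars). The ATRA and control libraries separate at KIT and CD33 and overlap at CD34, FLT3 and PROM1.

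Covered length was set per kb of window to place the genes in order. In the control cells CD34 was highest, at 34.3 ± 10.0 bp covered per kb (SD, n = 2), followed by FLT3 at 19.7 ± 1.0, PROM1 at 11.03 ± 1.35, KIT at 6.78 ± 0.81 and CD33 at 6.10 ± 0.76. KIT and CD33 did not differ beyond their spread, since CD33 was at 6.63 and 5.56 and KIT at 6.21 and 7.35. In the ATRA-treated cells the values were 28.9 ± 13.0 for CD34, 26.6 ± 16.0 for CD33, 25.7 ± 7.8 for FLT3, 21.3 ± 6.3 for KIT and 13.5 ± 5.1 for PROM1. None of the neighbours in that order differed beyond the spread, as ATRA replicate 2 lay above ATRA replicate 1 at all 5 genes.

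Ranks of the regions with peaks in all 4 lists were compared over the set. Percentiles were higher in both ATRA replicates than in both control replicates at 8 of 20 regions, compared with 29.2% of 23653 such regions in the genome. They were higher in both control replicates at 3 of 20, compared with 12.8%. For peak width the numbers were 8 and 2 of 20, compared with 37.1% and 3.97%. The median difference between the group means was 4.38 percentiles over the 20 regions and 2.83 over all regions, and the median difference in width was 61.5 bp and 100 bp. The 3 regions that ranked higher in the control replicates were those of CD34 and FLT3 described above, and none was at KIT, PROM1 or CD33. The mean percentile over the regions of a gene was 86.7 ± 5.7 in the ATRA-treated and 62.6 ± 8.8 in the control cells for KIT (2 regions), and 85.4 ± 2.5 against 55.1 ± 5.9 for CD33 (2 regions). For PROM1 (5 regions) it was 76.9 ± 4.2 against 63.1 ± 15.2, and here the groups barely separated, with 73.9 in ATRA replicate 1 and 73.8 in control replicate 2. The values overlapped between the groups for CD34 (6 regions), with 62.1 ± 7.4 against 60.4 ± 5.6, and for FLT3 (5 regions), with 71.4 ± 7.5 against 74.7 ± 3.8 (all SD, n = 2). How many protein-coding genes separate by this mean was not counted, so the separations at KIT, CD33 and PROM1 have no background.

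**Figure D4:**
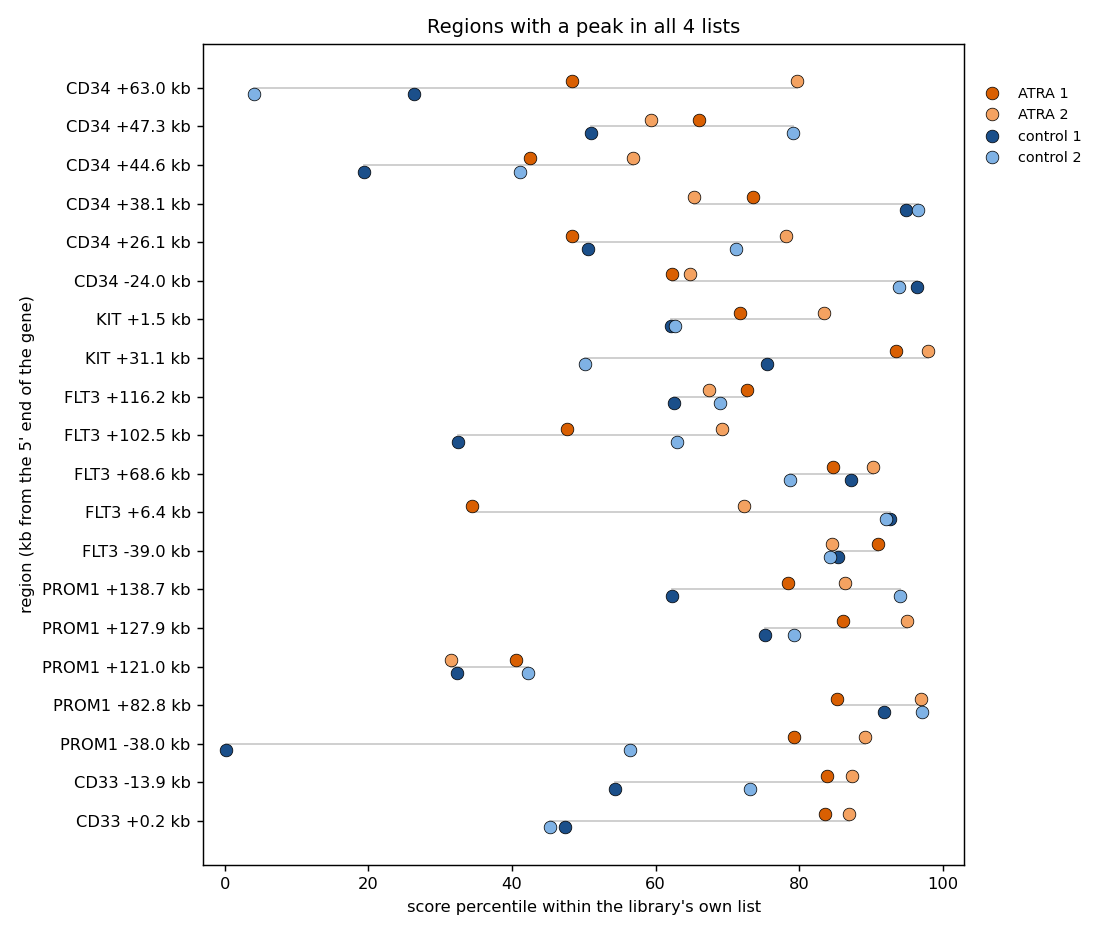
Score percentile within each library's own list (horizontal axis) of the 20 regions with a peak in all 4 lists, named by gene and distance from the 5′ end in kb. The ATRA replicates (orange) lie to the right of the control replicates (blue) at both regions of KIT and CD33 and at 2 regions each of CD34 and PROM1. They lie to the left at 2 other regions of CD34 and 1 of FLT3.

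Sequence motifs of blood transcription factors were searched on both strands in the central 200 bp of each region. A PU.1 match was the run GAGGAA. A RUNX match was the run TGTGGT. A CEBP match was the run TTGCNNAA, where N is any base. An AP-1 match was the run TGACTCA, whose reverse complement is TGAGTCA. For GATA factors, which have several accepted forms of the same core, either AGATAA or its close variant with another first letter, TGATAA, was counted. GATA factors act in stem, erythroid and mast cells, and PU.1, RUNX and CEBP factors act in myeloid cells. None of these motifs is contained in another. PU.1 was the most frequent, in 23 of 50 regions (46%), compared with 34.6% of all regions of the genome. GATA was found in 8 (16%, compared with 18.8%), RUNX in 7 (14%, compared with 19.9%), CEBP in 6 (12%, compared with 12.3%) and AP-1 in 3 (6%, compared with 5.72%). Of the 4 control-specific regions, 2 held GATA, both at CD34, while 30.7% of all control-specific regions held it. The CD34 regions with a GATA match were those in the intron and 12400 bp upstream. Of the 9 ATRA-specific regions, 4 held GATA, at KIT, FLT3 (2 regions) and CD33, while 14.7% of all ATRA-specific regions held it. PU.1 was found in 7 of the 9 ATRA-specific regions, compared with 40.8% of all ATRA-specific regions, and in 2 of the 4 control-specific regions, compared with 30.7%. None of these shares was tested, and a match is a run of letters and not a measured binding site.

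Genes related to the 5 members were examined in windows of the same kind. Among 21 ligands and structural relatives, 9 had a control-specific region (42.9%, compared with 39.0% of protein-coding genes) and 17 had an ATRA-specific region (81.0%, compared with 64.5%). These shares, here and in the lists below, were not tested, and neighbours in a list share regions. They also depend on the number of regions in a window, which had a median of 6 over protein-coding genes (quartiles 4 and 9). Many listed genes held more, and the shares were not adjusted for this. CSF1R, PDGFRA and PDGFRB encode receptor tyrosine kinases of the same family as KIT and FLT3. CSF1R had 6 control-specific and 1 ATRA-specific regions, PDGFRB had 5 and 3, and PDGFRA had 3 and 0. The low library at each of them was ATRA replicate 1, with 9, 8 and 1 peaks in the same order. ATRA replicate 2 had 14, 13 and 5 peaks, against 15 and 14, 12 and 14, and 4 and 4 in the control replicates. CSF1R and PDGFRB are neighbours and share part of their windows. PDGFRA lies on the same chromosome as KIT, where the counts were 0 control-specific and 4 ATRA-specific. Among the relatives of CD33 there were 0 control-specific and 7 ATRA-specific regions for SIGLEC5, 0 and 6 for SIGLEC8 and 1 and 5 for SIGLEC10, which lie in one cluster on chromosome 19 where neighbours such as SIGLEC8 and SIGLEC10 share part of their windows, whereas SIGLEC15, on another chromosome, had 4 and 0. Peaks at SIGLEC15 numbered 4 and 9 in the ATRA replicates and 8 and 9 in the control replicates. FLT3LG, the ligand of FLT3, had 0 control-specific and 4 ATRA-specific regions. SIGLEC6, SIGLEC12 and SIGLEC14 had the same excess of 4 as SIGLEC10 and FLT3LG.

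Among 22 signalling partners of KIT and FLT3, 14 had a control-specific region (63.6%, compared with 39.0% of protein-coding genes). An ATRA-specific region was found at 16 of them (72.7%, compared with 64.5%). Their windows held from 2 regions at SOCS2 to 18 at INPP5D and SLA, and this was not adjusted for. The largest excess of control-specific regions was at STAT5A (3 against 0), which transmits the signal of both receptors to the nucleus. It was followed by SOS1 (2 against 0), STAT5B (3 against 1) and SH2B3 (1 against 0). Peaks at STAT5A numbered 1 and 2 in the ATRA replicates and 4 and 4 in the control replicates. At STAT5B ATRA replicate 1 alone was low, with 3 and 8 against 7 and 5. SOS1 had 6 and 7 against 8 and 7, and SH2B3 had 6 and 5 against 6 and 9. The excess of 1 at SH2B3 was shared by STAT3 (2 against 1) and SLA2 (1 against 0). STAT5A, STAT5B and STAT3 are neighbours with overlapping windows, so the same region can count for more than 1 of them. ATRA-specific regions were in excess at INPP5D (0 control-specific, 5 ATRA-specific), PTPN6 (0 and 4), SLA (0 and 4) and GAB2 (0 and 2), and the excess of 2 at GAB2 was shared by SHC1 and PIK3CD (1 and 3 each). INPP5D and PTPN6 encode phosphatases that limit receptor signalling, and SLA and SH2B3 encode adaptors of this kind. Of these, SH2B3 alone was on the control side, by 1 control-specific region, which 39.0% of protein-coding genes had at least. CBL, a ubiquitin ligase, and SOCS1, an inhibitor of cytokine signalling, had equal numbers (1 and 1, and 3 and 3). Among 18 other surface proteins of stem and progenitor cells, 10 had a control-specific region (55.6%, compared with 39.0%) and 16 had an ATRA-specific region (88.9%, compared with 64.5%). ENG and PROCR each had 0 control-specific and 4 ATRA-specific regions, CD44 and CD48 each had 2 and 5, and CXCR4 had 2 and 1.

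The protein-coding genes with the most similar pattern were found by the distance over 8 values, the log2 of peak number + 1 and of covered bp + 1 in each of the 4 libraries. For CD34 these were PTH2R, RCCD1 and TRIM2 (distance 0.458 to 0.484), and for KIT they were BTF3L4, BLOC1S2 and UPP1 (0.416 to 0.468). KIT had the same peak numbers in the control libraries as all 3 of these, 3 and 4, but these numbers are among the values by which the genes were chosen. For PROM1 they were METTL25, SLC35C1 and MOXD1 (0.239 to 0.281) and for CD33 they were BTBD2, PTGFRN and GYG1 (0.646 to 0.698). For FLT3 they were ENSG00000259132, C11orf58 and HAUS4 (0.220 to 0.224), and the first and last of these overlap each other in the genome. CD33 was thus farther from its nearest gene than the other members were.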

How the data were processed

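Open chromatin was measured by ATAC-seq in 4 libraries of HL-60 cells, 2 treated with ATRA and 2 with ethanol. Per the labels and the methods, the authors removed adapters, aligned reads to hg19 with Bowtie (Bowtie2 in the submitters' processing notes) and called peaks with MACS2 at default settings, 1 list per library. Amplification took 15 PCR cycles in the labels and 12 in the methods. The deposited lists hold start, end and a score for each peak, from 50 to 3100 and of unstated scale. No read counts were used here, so depth is unknown. Tn5 shifting, duplicate removal and blacklist filtering are not given in the sources used here.

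Each score was converted to a mid-rank percentile within its list. Peaks of the 4 lists were merged at 1 bp overlap and classed by the study's rule, in which peaks found in both replicates are kept and compared between groups. Genes and starts came from GENCODE 44 lifted to GRCh37, the same assembly as hg19; all 24 chromosomes were present and 0 regions passed a chromosome end. Coordinates are 1-based. Merging, classes and tests were tested on simulated data. Python 3.11.15, numpy 2.4.6 and matplotlib 3.10.9 were used. Numbers of peaks and covered base pairs were compared by a two-sided exact permutation test over the 4 libraries with Benjamini-Hochberg adjustment over the 5 genes. The smallest p is 0.333, so no comparison can reach conventional significance. Named genes were the 5 members, genes with a promoter in a member region, up to 4 genes per list with the largest excess in each direction, and the 3 most similar genes. Sequences shown were specific regions with no peak in the other group, up to 2 per gene, and starts that lay in a peak. The start of FLT3 lay in the peak of control replicate 2 only. Windows, thresholds, peak widths, list lengths, overlaps, definitions and single libraries were varied. Members and lists were chosen with earlier results of these data known. The result of 1 marker gene is not reported here.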

Additional observations from a re-analysis of the deposited data

How the results depend on the processing

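No result could pass a threshold, since the exact permutation p cannot go below 0.333 with 4 libraries. At KIT, FLT3 and CD33 the number of peaks and the covered length kept their direction (more in the ATRA replicates) under all 10 alternatives run for each. Not all of these could have reversed it. The alternative with the replicate number as a block leaves the mean difference as it is by arithmetic. Setting every peak to 200 bp left the peak numbers as they were and made the covered length follow them. At FLT3 the groups overlapped in both measures. Its differences (1 peak and 1195.5 bp) ranged from 0.5 to 1.5 peaks and from 108.5 to 2282.5 bp with single libraries left out. The covered length was lowest without ATRA replicate 2, the longest list. At CD34 the difference in peaks (-1) ranged from -2.5 to 0.5 with single libraries left out, and was above 0 without ATRA replicate 1 only. Its covered length (-713.5 bp) became 431.5 bp with 100 kb on either side, and ranged from -1910.5 to 483.5 bp with single libraries left out. At PROM1 the difference in peaks (0.5) became -1.5 and that in covered length (541.5 bp) became -117 bp when all lists were cut to 42081 peaks, and they ranged from -0.5 to 1.5 peaks and from -260.5 to 1343.5 bp with single libraries left out. The difference in mean percentile at CD34 (1.73) became -16.3 at that list length. Percentiles were recomputed within the cut lists, and the regions of CD34 shared by all 4 lists went from 6 to 5. How much each of these changes moved the value was not tested.

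The control-specific regions (4) became 2 with 10 kb, 8 with 100 kb and 2 with no peak allowed in the other group, and 2 to 9 with single libraries left out. The ATRA-specific regions (9) became 5 above the median score of each list and 5 with no peak allowed in the other group, and 7 to 21 with single libraries left out. Leaving out a library lets its partner stand for the group, so the regions that count as replicated change. The balance of ATRA-specific over control-specific regions at CD34 (-3) ranged from -4 to 1 and reversed without ATRA replicate 1, and at FLT3 (2) it was 0 above the median score of each list and with no peak allowed in the other group, and reversed to -1 without control replicate 2. Motifs searched in whole regions were found in 34 regions for PU.1 (68%, compared with 51.8% of all regions), 19 for GATA (38%, compared with 35.9%), 15 for RUNX (30%, compared with 32.8%), 18 for CEBP (36%, compared with 23.6%) and 7 for AP-1 (14%, compared with 10.5%). CEBP was thus level with the genome in the central 200 bp and more frequent in whole regions. GATA, RUNX and AP-1 also rose relative to the genome, and PU.1 did not. Shares in whole regions depend on region length, which was not matched to the genome.

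Replicate numbers do not pair the libraries by the labels; deviations of same-numbered libraries correlated at 0.211 over 23653 regions. With the replicate number as a block the differences cannot change, because the mean of the paired differences equals the difference of the group means. They were 3.5 peaks and 2669 bp for KIT and 3 peaks and 2438 bp for CD33. The exact sign-flip p was 0.5, the smallest that 2 pairs allow.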
